A study of Homo sapiens with 2 samples.

Results

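Transcription factors that define the melanocyte and neural crest lineage were set against factors of the foregut endoderm, the embryonic tissue that forms lung, thyroid, liver and stomach. The members were given by name: 4 melanocyte or neural crest factors (SOX10, MITF, PAX3 and TFAP2A) and 5 foregut factors (FOXA1, FOXA2, NKX2-1, HNF4A and GATA6), 9 of the 60527 genes in the deposited table. Each symbol matched 1 gene. RNA came from cells labelled SK-MEL-2, an established human melanoma line, described in the labels as skin melanoma cells. The control culture received DMSO, the solvent, and the other received 1.75 µM JNJ-7706621, a small molecule that blocks cell cycle kinases of the CDK and Aurora families, both for 48 h. Only 1 library per group was analysed, so no value has a replicate check and no test was run. The deposited table also holds 2 value columns whose names give a second number for each group; they match no sample described here and were not used. The libraries held 23377161 (DMSO) and 22817719 (JNJ-7706621) reads. Intervals in parentheses are exact 95% intervals that cover counting error only.

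Lineage factors work as small sets that switch on the genes of a cell type and keep each other's genes on. In pigment cells SOX10 and PAX3 act on the melanocyte promoter of MITF, and MITF then drives the enzymes of melanin synthesis, with TFAP2A acting beside it. In foregut derivatives FOXA1 and FOXA2 bind closed chromatin first, GATA6 acts early in endoderm, NKX2-1 marks lung and thyroid, and HNF4A marks liver and gut.

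The libraries labelled SK-MEL-2 held both MITF and FOXA factors, but hardly any SOX10, PAX3 or NKX2-1. Levels are FPKM, reads scaled to exon length and to the size of the library, and reads were recovered from them. Of the 9 factors, 8 had at least 1 read in some library, 6 had more than 3 reads in both, and 4 (MITF, TFAP2A, FOXA1 and FOXA2) stood at 1 FPKM or more in both. The 5 foregut factors added up to 15.5 FPKM with DMSO and 14.2 FPKM with JNJ-7706621, and the 4 melanocyte and neural crest factors to 5.37 and 4.03 FPKM. Of 8 melanocyte markers, 2 (MITF and PMEL) had a mean of at least 1 FPKM. MLANA had 14 and 13 reads and TYRP1 had 5 and 7. SOX10 and DCT had 1 and 0 reads, and TYR and S100B had 0 in both libraries, so 4 of the 8 markers of the labelled cell type had at most 1 read in either library. Of 10 epithelial markers 9 (all but ESRP2) had a mean of at least 1 FPKM, against 0 of 6 for lung epithelium, 0 of 6 for hepatocytes, 0 of 8 for fibroblasts, 0 of 6 for immune cells and 0 of 4 for endothelium. The summed level of the melanocyte markers was 4.92 and 6.25 FPKM in the DMSO and JNJ-7706621 libraries, and that of the epithelial markers 2308 and 2303 FPKM. Keratins made up most of the epithelial sum, with KRT18, KRT8 and KRT7 at 1117, 720 and 305 FPKM in the DMSO library. MITF, itself a member, gave 2.65 FPKM of the melanocyte sum there. The fibroblast markers added up to 0.264 and 1.32 FPKM, with COL1A2 at 0 reads in both libraries, and the immune markers to 0.834 and 1.33 FPKM, with PTPRC and CD3E at 0. For lung epithelium the sums were 0.0359 and 0.201 FPKM (SFTPA1 and SCGB1A1 at 0), for hepatocytes 0.717 and 1.64 FPKM (APOA1 and TTR at 0) and for endothelium 0.129 and 0.244 FPKM. The part of other cells in the results was not tested. In RNA of whole cultures, fewer cells of a type and less RNA per cell cannot be told apart.

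**Figure D1:**
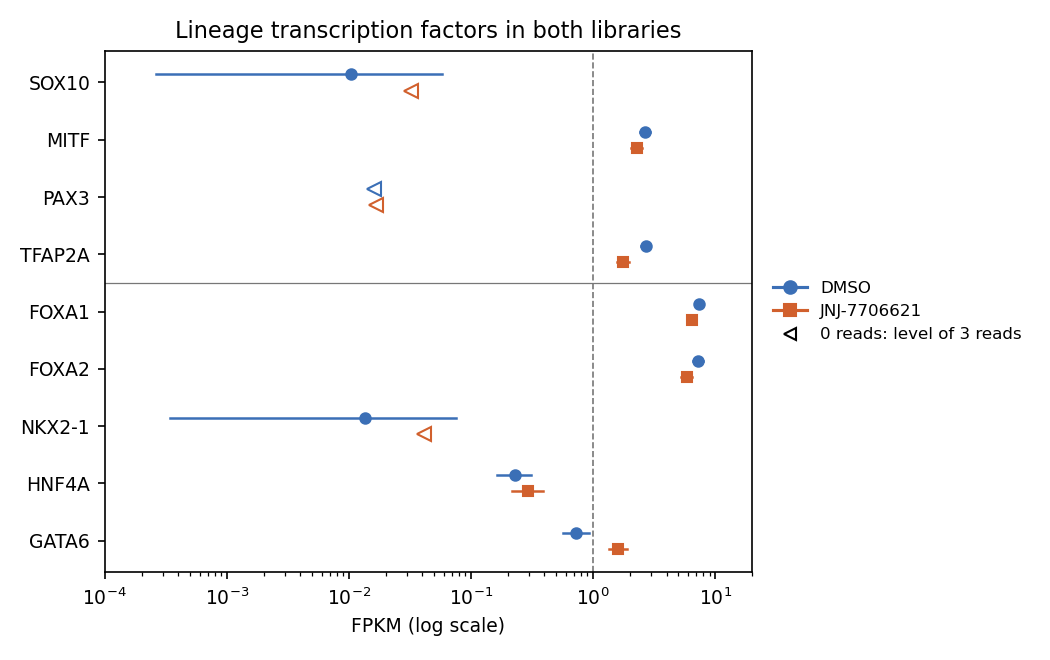
Level of each factor in the DMSO library (circles) and the JNJ-7706621 library (squares) as FPKM on a log scale, with 95% counting intervals; open triangles stand at the level of 3 reads where a library had 0, and the dashed line marks 1 FPKM. FOXA1 and FOXA2 stood highest in both libraries, and SOX10, PAX3 and NKX2-1 had 0 or 1 read.

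Several of these genes have more than 1 start, and an FPKM value adds up reads over all exons of a gene, so it does not tell which promoter was used. MITF has 15 annotated transcript starts, HNF4A 6 and TFAP2A 18. The 250 bases before a RefSeq start (build GRCh38.p14) are shown for the most upstream MITF start and for the start of the melanocyte isoform M, which lies 197157 bases after the first annotated base of the gene, since these separate the general from the pigment cell promoter. The distal and proximal starts of HNF4A and the more upstream start of TFAP2A, the factor with the lowest ratio, are shown with them. Capitals mark matches, on either strand, to short motifs of lineage factors and of liver promoters, the cyclic AMP response element and the TATA box.
MITF, distal, chr3:69739214-69739463, plus strand: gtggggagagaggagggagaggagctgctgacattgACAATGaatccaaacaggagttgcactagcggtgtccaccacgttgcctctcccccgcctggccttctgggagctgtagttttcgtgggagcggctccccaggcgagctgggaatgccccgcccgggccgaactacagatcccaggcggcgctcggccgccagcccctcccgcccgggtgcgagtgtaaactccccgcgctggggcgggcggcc
MITF, isoform M, chr3:69936342-69936591, plus strand: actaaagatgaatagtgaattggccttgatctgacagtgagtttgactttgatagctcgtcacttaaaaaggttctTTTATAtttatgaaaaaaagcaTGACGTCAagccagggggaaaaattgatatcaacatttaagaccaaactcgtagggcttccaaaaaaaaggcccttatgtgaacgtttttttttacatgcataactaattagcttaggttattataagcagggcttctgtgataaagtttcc
HNF4A, distal, chr20:44355449-44355698, plus strand: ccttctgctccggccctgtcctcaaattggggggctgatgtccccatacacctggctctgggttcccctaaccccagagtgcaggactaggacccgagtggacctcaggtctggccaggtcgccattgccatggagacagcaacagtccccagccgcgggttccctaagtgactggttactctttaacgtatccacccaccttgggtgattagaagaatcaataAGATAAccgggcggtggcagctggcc
HNF4A, proximal, chr20:44400989-44401238, plus strand: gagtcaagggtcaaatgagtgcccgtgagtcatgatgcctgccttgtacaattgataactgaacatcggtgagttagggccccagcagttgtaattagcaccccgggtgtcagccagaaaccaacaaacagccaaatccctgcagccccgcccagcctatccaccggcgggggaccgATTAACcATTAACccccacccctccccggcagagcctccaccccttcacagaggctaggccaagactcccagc
TFAP2A, upstream, chr6:10419660-10419909, minus strand: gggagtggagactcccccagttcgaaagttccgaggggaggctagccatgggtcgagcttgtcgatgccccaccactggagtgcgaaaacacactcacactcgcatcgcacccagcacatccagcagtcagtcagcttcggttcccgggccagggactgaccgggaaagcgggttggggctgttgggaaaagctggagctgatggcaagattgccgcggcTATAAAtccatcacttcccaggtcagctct

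The RefSeq table matched 7 of the 9 factors, in 12 windows; SOX10 and FOXA2 were not matched. The motifs searched were ACAAAG or ACAATG for SOX factors, found in 21.2% of all 35116 such windows, TGACGTCA for the cyclic AMP response element (1.65%), CACGTG or CATGTG for the E-box of MITF (15.2%), TGTTTAC or TATTTAC for FOXA factors (5.27%) and AGATAA for GATA factors (9.17%). The others were GTTAAT, known from liver promoters (6.23%), CAAAGNNCA for HNF4 factors (4.44%), GCCNNNGGC for TFAP2 factors (19.8%), CAAGTG for NKX2-1 (9.5%) and TATAAA for the TATA box (10.7%). CAAAGNNCA can share letters with ACAAAG, and the remaining motifs do not hold one another. Positions count back from the RNA start, with -1 the last base of the window. The isoform M window of MITF held 1 cyclic AMP response element at -152 and 1 TATAAA on the opposite strand at -174. The distal MITF window held 1 SOX match at -214. The proximal HNF4A window held 2 matches to GTTAAT, both on the opposite strand, at -73 and -66, and the distal one held 1 GATA match at -26. The TFAP2A window held TATAAA at -30. In base composition the isoform M window stood apart from the distal one: 34.8% of its bases were G or C and it held 4 CpG dinucleotides, against 68.0% and 20 in the distal MITF window and medians of 58.0% and 11 over all windows. These matches describe the letters only, and binding was not measured. The motifs were chosen after the sequences were seen.

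SOX10 (ENSG00000100146), the factor that sets the melanocyte fate in the neural crest, was at 1 read with DMSO and at 0 with JNJ-7706621, where 3 reads would be 0.0321 FPKM. It lies on chromosome 22 at 37970686 to 37987422 (GRCh38, as are all gene positions here, from GENCODE release 29), and 2.40% of its exon length overlaps an exon of POLR2F on the other strand. POLR2F, a subunit of RNA polymerase II, had 489 and 544 reads. PAX3 (ENSG00000135903), a paired-box factor of neural crest and muscle, at 222199888 to 222298996 on chromosome 2, had 0 reads in both libraries. The upper ends of its exact 95% intervals were 0.0199 FPKM for DMSO and 0.0204 FPKM for JNJ-7706621. No ratio can be given for either gene.

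MITF (ENSG00000187098), the main regulator of pigment cells, at 69739435 to 69968337 on chromosome 3, stood at 2.65 FPKM (2.41 to 2.91) in the DMSO library on 445 reads and at 2.27 FPKM (2.05 to 2.51) in the JNJ-7706621 library on 372 reads. The JNJ-7706621 library was slightly the lower of the pair, at a ratio of 0.856 (0.744 to 0.985). By mean level MITF stood above 24.5% of the genes with a mean of at least 1 FPKM. Which of the promoters printed above gave these reads was not tested.

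TFAP2A (ENSG00000137203), the AP-2 alpha factor of neural crest and surface ectoderm, lies at 10393186 to 10419659 on chromosome 6. It stood at 2.71 FPKM (2.48 to 2.95) in the DMSO library on 520 reads and at 1.76 FPKM (1.58 to 1.96) in the JNJ-7706621 library on 330 reads. Its ratio of 0.650 (0.565 to 0.748) was the lowest among the 6 factors with a ratio. Exons of TFAP2A-AS1 and TFAP2A-AS2, antisense genes, cover 16.7% of its exon length. The ratio of TFAP2A-AS2 was 0.689 (0.512 to 0.922), from 119 reads with DMSO and 80 with the inhibitor, and TFAP2A-AS1 had 26 and 18. Whether counting used strand is not given in the sources used here, so reads of these genes and of TFAP2A cannot be told apart where they overlap.

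FOXA1 (ENSG00000129514), a pioneer factor of endoderm and of several adult epithelia, lies at 37589984 to 37596059 on chromosome 14. It had the highest level of the 9 in both libraries, 7.37 FPKM (6.85 to 7.91) in DMSO on 760 reads and 6.48 FPKM (6.00 to 7.00) in JNJ-7706621 on 653 reads. Its ratio was 0.880 (0.792 to 0.979). FOXA2 (ENSG00000125798), its close relative in liver, pancreas and lung, lies at 22581005 to 22585455 on chromosome 20. It stood at 7.18 FPKM (6.52 to 7.89) on 437 reads and at 5.84 FPKM (5.24 to 6.49) on 347 reads, a ratio of 0.814 (0.705 to 0.939). Both FOXA genes lay near the middle of the genes with a mean of at least 1 FPKM, above 56.8% and 55.1% of them by mean level. In the DMSO library they ranked 5433 and 5516 from the top, where 25185 genes were above 0.

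NKX2-1 (ENSG00000136352), the homeobox factor of lung and thyroid, lies at 36516392 to 36521149 on chromosome 14. A single read came from the DMSO culture and 0 from the treated one, where 3 reads would be 0.0415 FPKM. Its antisense neighbour NKX2-1-AS1 had 0 reads in both. Other factor genes lie near it on chromosome 14. NKX2-8, at 36580579 to 36582607, stood at 0.580 and then 0.404 FPKM (DMSO first), and its ratio was 0.697 (0.353 to 1.34). PAX9, a factor of pharyngeal pouches at 36657568 to 36679715, stood at 0.737 and 1.5 FPKM, a ratio of 2.04 (1.60 to 2.61). FOXA1, which had the most reads of the 9 factors, follows further along.

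HNF4A (ENSG00000101076), the nuclear receptor of liver and gut, lies at 44355700 to 44434596 on chromosome 20. It stood at 0.228 FPKM (0.162 to 0.312) in the DMSO library on 39 reads and at 0.294 FPKM (0.217 to 0.388) in the JNJ-7706621 library on 49 reads. The ratio of 1.29 (0.828 to 2.01) has an interval that spans 1, so a difference was not detectable at this depth.

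GATA6 (ENSG00000141448), a zinc finger factor of early endoderm, lies at 22169443 to 22202528 on chromosome 18. It stood at 0.728 FPKM (0.565 to 0.923) in the DMSO library on 68 reads and at 1.61 FPKM (1.36 to 1.89) in the JNJ-7706621 library on 147 reads. The intervals of the libraries do not overlap, and the ratio was 2.21 (1.65 to 3.00). GATA6 was the 1 member with a ratio above 1 beyond counting error. Antisense exons cover 14.2% of its exon length: AC091588.3 had 21 reads in DMSO and 40 in JNJ-7706621, and GATA6-AS1 had 1 and 6. Without strand these cannot be told apart from GATA6 in the shared bases.

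**Figure D2:**
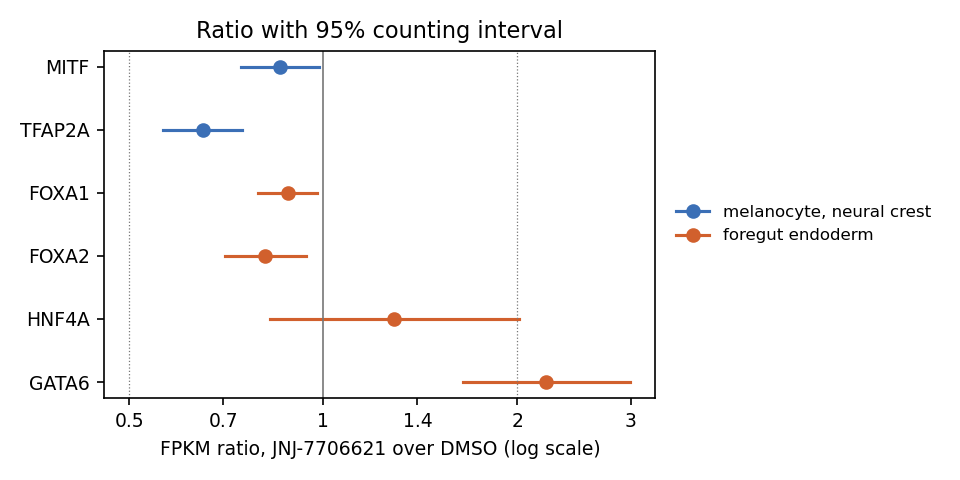
FPKM ratio of JNJ-7706621 over DMSO on a log scale with 95% counting intervals for the 6 factors with more than 3 reads in both libraries; dotted lines mark ratios of 0.5 and 2. The intervals of MITF, TFAP2A, FOXA1 and FOXA2 lie below 1, that of GATA6 above 1, and that of HNF4A spans 1.

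Ordered by level, the DMSO library ran from FOXA1 and FOXA2 over TFAP2A and MITF to GATA6 and HNF4A, with NKX2-1, SOX10 and PAX3 last. The counting intervals of FOXA1 and FOXA2 overlapped there, as did those of TFAP2A and MITF. In the JNJ-7706621 library MITF stood above TFAP2A and their intervals did not overlap, while those of TFAP2A and GATA6 did. FOXA1 and FOXA2 again overlapped. GATA6 was thus well under TFAP2A in the DMSO library and not separated from it by counting error in the other.

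The comparison of the libraries as a whole used log2(FPKM + 1), JNJ-7706621 minus DMSO, over genes with a mean of at least 1 FPKM, and a gene was called at a difference of 1 or more in size, a scale on which low genes differ by less than their ratio. By this measure 0 of the 5 members that passed the filter were called higher and 0 lower, beside 2.39% and 1.36% of the 13241 genes measured. GATA6 passed that filter only through its level in the JNJ-7706621 library. Its difference was 0.60, and 8.22% of all measured genes had a larger one. The differences of TFAP2A, FOXA2, FOXA1 and MITF were -0.43, -0.26, -0.16 and -0.16, against a median of -0.0032 over all measured genes, and 13.1% of genes had a lower value than TFAP2A. By the plain FPKM ratio 1 member, GATA6, had a value of 2 or more, as had 4.95% of measured genes, and 0 members had 0.5 or less, beside 3.56%. The counting interval lay below 1 for 4 of the 5 members and above 1 for 1, but it also lay below 1 for 33.2% and above 1 for 32.8% of all 13108 measured genes with recovered reads. An interval that leaves out 1 was therefore common in these libraries and says nothing on the spread between cultures. Among the 2 melanocyte and neural crest members that passed the filter the median difference was -0.29, and among the 3 foregut members -0.16. Over all 4 and all 5 members, with those at few or 0 reads, the medians were -0.09 and -0.02.

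**Figure D3:**
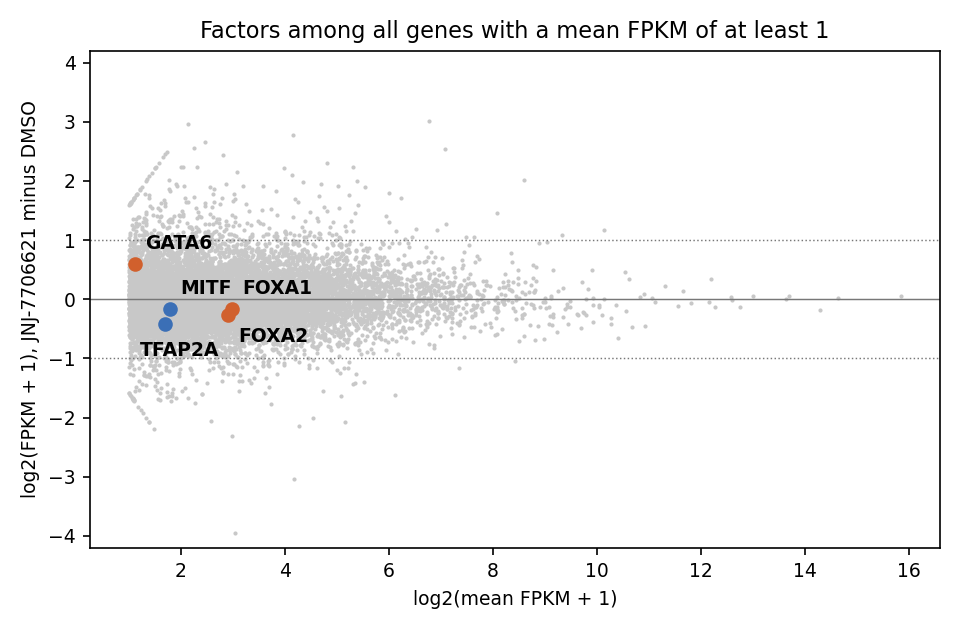
Difference of log2(FPKM + 1), JNJ-7706621 minus DMSO, against the log2 of the mean FPKM plus 1 for 13241 genes (grey points), with melanocyte and neural crest factors in blue and foregut factors in orange; dotted lines mark differences of -1 and 1. The 5 members with a mean of at least 1 FPKM lie within the dotted lines, GATA6 at 0.60 and TFAP2A at -0.43.

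Relatives that can bind like sites were measured beside the members. TFE3, of the same helix-loop-helix family as MITF, stood at 10.1 and 10.5 FPKM in the DMSO and JNJ-7706621 libraries, above MITF in both. SOX9, of the same SOX subgroup as SOX10, stood at 8.44 and 10.5 FPKM, a ratio of 1.25 (1.14 to 1.38), and the AP-2 factor TFAP2C at 6.37 and 6.86 FPKM, above TFAP2A in both. FOXA3, the third FOXA gene, stood at 4.25 and 2.99 FPKM, a ratio of 0.704 (0.566 to 0.874), so all FOXA genes were lower in the JNJ-7706621 library by less than the rule of size. GATA2 stood at 1.02 and 1.94 FPKM, a ratio of 1.90 (1.5 to 2.43). GATA3, named here after its values were seen, had 2 and 26 reads, a ratio of 13.3 (3.33 to 116). GATA2 and GATA3 thus went the same way as GATA6, and GATA5 had 0 reads in both. A ratio above 1 was not particular to GATA genes. Of the 6 relatives that passed the filter 5, GATA2 among them, had a difference above 0, as had 6573 of all 13241 measured genes. SOX9 and NKX2-5 had intervals above 1, as had 32.8% of measured genes with recovered reads. Those of TFE3 (0.946 to 1.13) and TFAP2C (0.944 to 1.23) spanned 1. PAX7, a relative of PAX3 under the filter and also named after its values were seen, went the other way. It had 179 and 77 reads, a ratio of 0.441 (0.333 to 0.579). NKX2-5 stood at 1.52 and 2.80 FPKM, where NKX2-1 had hardly a read. Of 16 such relatives 6 passed the filter, with 0 called and a median of 0.19.

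Genes linked to each lineage were read from lists named for it. Whether the members control the listed genes was not tested. Of 25 melanocyte identity genes 11 passed the filter, 1 was called higher and 0 lower, with a median of 0.11, and 6 had 0 reads in both libraries. RAB38, which sorts melanosome cargo, was the 1 called, at 1.43 and 4.19 FPKM, a ratio of 2.92 (2.09 to 4.15). The melanosome gene PMEL stood at 2.00 and 3.71 FPKM, while MYO5A, the motor that moves melanosomes, and the melanocortin receptor MC1R had ratios of 0.501 (0.442 to 0.566) and 0.495 (0.385 to 0.632). MLPH, the melanophilin of the same transport complex, had the highest level on this list, at 17.2 and 17.5 FPKM. Genes on the melanocyte list thus had ratios on both sides of 1, and MITF itself had a ratio of 0.856. Of 18 other neural crest and melanoma state genes 8 passed the filter and 0 were called, with a median of 0.27, TWIST1 with the lowest difference (-0.57) and MSX2 with the highest (0.52).

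Of 43 liver genes 8 passed the filter and 12 had 0 reads in both, among them APOA1 and TTR. Of these 8, 4 were called lower and 0 higher, with a median of -0.69: the fibrinogen genes FGA, FGB and FGG, with differences of -2.07, -3.03 and -1.77, and VTN. The fibrinogen genes lie together on chromosome 4, between 154562956 and 154612967. Over all 43 liver genes, with those at few or 0 reads, the median was 0. But 35 of them lay under the filter, where this scale keeps differences near 0. That median therefore does not tell whether the list as a whole was lower. VTN, the plasma protein vitronectin, stood at 10.9 and 4.79 FPKM, a ratio of 0.439 (0.372 to 0.518). HNF4A, to which liver genes respond, stood at 0.228 and 0.294 FPKM in the same libraries. It was under the filter, with 39 and 49 reads and a ratio interval of 0.828 to 2.01. Whether it acts on these genes here was not tested. Of 20 lung and thyroid genes 3 passed the filter, with a median of -0.12, and 1 was called lower, the surfactant protein gene SFTPD at 8.70 and 3.38 FPKM, a ratio of 0.388 (0.306 to 0.490). The other genes of that list that passed were ABCA3, a lipid transporter of lung epithelium, with 828 and 728 reads and a ratio of 0.901 (0.814 to 0.996), and LPCAT1, an enzyme of surfactant lipid synthesis, with 4327 and 5313 reads and a ratio of 1.26 (1.21 to 1.31). The 5 genes at 0 reads in both libraries were SFTPA1, SFTPA2, SCGB1A1, SCGB3A2 and TSHR. Among genes under the filter, named after their values were seen, LAMP3 had 4 and 35 reads, NAPSA 1 and 15, and AGER 61 and 34. Of 25 gut and stomach genes 11 passed the filter, with a median of -0.15, 1 called higher, the mucin gene MUC5AC at 73.7 and 168 FPKM, and 1 called lower, MUC5B at 224 and 99.9 FPKM. SPDEF, a factor of mucus-secreting cells, stood at 30.5 and 17.3 FPKM.

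Of 36 other endoderm and epithelial factors 19 passed the filter and 0 were called, with a median of 0.01. HHEX, a homeobox factor of the early liver bud, had the highest difference, at 1.46 and 3.67 FPKM and a ratio of 2.51 (1.95 to 3.27). KLF5, a factor of gut epithelium, and SOX4 had ratios of 0.561 (0.528 to 0.595) and 0.592 (0.549 to 0.638). Of 15 BMP and TGF-beta genes that act around endoderm formation 9 passed the filter, with 2 called lower (NOG and ID4), 0 higher and a median of -0.60. The housekeeping genes ACTB and GAPDH had ratios of 0.746 (0.736 to 0.756) and 0.965 (0.958 to 0.973), and the ratios of MITF, FOXA1 and FOXA2 lay between them. ACTB itself had a difference of -0.42, near that of TFAP2A (-0.43), against a median of -0.0032 over all measured genes. The range between ACTB and GAPDH therefore does not mark an unchanged level.

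**Figure D4:**
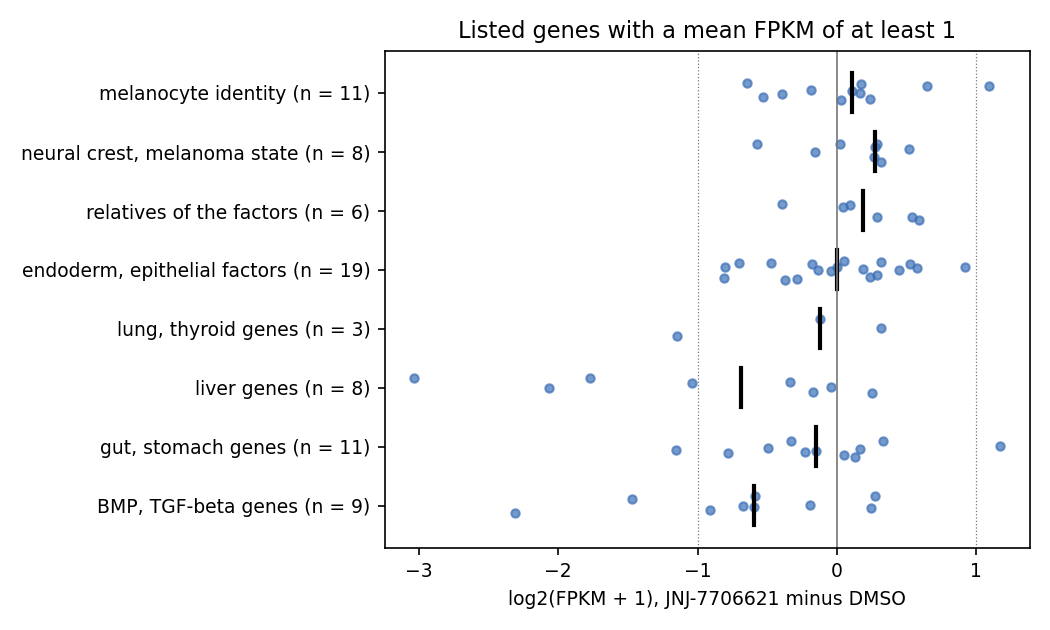
Difference of log2(FPKM + 1), JNJ-7706621 minus DMSO, for the listed genes with a mean of at least 1 FPKM (points, spread vertically at random) with the median of each list (black bars); dotted lines mark -1 and 1. The liver list has 4 genes under -1, the factor lists have 0 beyond either line, and RAB38 lies above 1 among melanocyte genes.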

How the data were processed

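RNA of 2 cultures labelled SK-MEL-2 was measured, 1 library per group, with groups taken from the sample labels. The authors deposited FPKM values per gene, per the file headers with Ensembl identifiers and symbols. The submitters' processing notes list hg38 and edgeR but no version and no role. What aligner, counter, annotation and strand setting were used is not given in the sources used here. By name, 2 columns match the samples, and 2 further value columns, numbered as a second of each group, match no sample described here and were not used here.

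Library totals were computed as the most frequent value that genes of 1 read give with GENCODE release 29 exon lengths: 23377161 for DMSO and 22817719 for JNJ-7706621. Reads were FPKM times exon length times total, whole within 0.0001, with the nearest exon length (0.25 to 4 times the annotated one) where the annotated length gave no whole numbers. This was so for 4 of the 9 members. Reads of 27805 of 28014 genes were recovered, 99.7% of each total.

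Each ratio has an exact 95% Clopper-Pearson interval, conditional on the sum of its reads, and each level an exact Poisson interval; both cover counting error only. A floor of 3 reads was used for a library at 0. A gene was called where log2(FPKM + 1) differed by 1 or more and the mean FPKM was at least 1. No test across genes was run. The calculations were tested on simulated data. Python 3.11.15, scipy 1.17.1 and pandas 2.3.3 were used. Alternatives were other pseudocounts, filters and scalings.

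The members and lists were chosen with earlier results of these data known. The lists are samples of each class, not full families. The rule for naming took all members, their neighbouring and overlapping genes, ACTB and GAPDH, and from each list the 5 largest differences and 3 highest levels among those that passed this filter, plus genes at 0 reads where 5 or fewer. Only some of these are named, and 1 listed gene is not reported here. NKX2-8, PAX9, PAX7, GATA3, LAMP3, NAPSA, AGER, APOA1, TTR and the single markers are outside that rule and were chosen after their values were seen.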

Additional observations from a re-analysis of the deposited data

How the results depend on the processing

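No paired analysis was possible because only 1 library per group was analysed (the 2 further columns, numbered as a second of each group, match no sample described here and were not used), and for the same reason no library was left out. The number of members called higher was 0 and became 1 (GATA6) with a pseudocount of 0.1 and by the plain FPKM ratio with no pseudocount, an alternative added after the data were seen. The number called lower was 0 in each of the 6 alternatives and the added one. All genes called higher and lower numbered 316 and 180, and 608 and 409 with a pseudocount of 0.1, 145 and 75 with a mean of at least 5 FPKM, 714 and 478 after rescaling to TPM, and 656 and 471 by the plain ratio. With a pseudocount of 0.5, 274 genes were called lower. The median difference of the foregut factors was -0.16 and became -0.019 with no filter on low values, where NKX2-1 and HNF4A enter. A filter does not alter a gene's own difference, and a pseudocount cannot change its sign, so part of the next counts was fixed in advance. Of 27 recomputed member differences 24 stayed within the counting interval of the value given and 0 changed sign. The 3 others were GATA6 at 1.05 and TFAP2A at -0.59 with a pseudocount of 0.1, and GATA6 at 0.80 in TPM. With a mean of at least 5 FPKM no melanocyte or neural crest factor was left. Depth limits SOX10, PAX3 and NKX2-1, which had 0 or 1 read, and HNF4A, whose interval spans 0.828 to 2.01.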

Other observations

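Several markers of other cell types with low levels had more reads in the JNJ-7706621 library. LUM, a proteoglycan of connective tissue, had 5 reads with DMSO and 49 with JNJ-7706621, and the collagen gene COL1A1 had 31 and 92. The plasma protein genes SERPINA1 and AHSG, also on the liver list but under the filter, had 25 and 65 reads and 14 and 38 reads. The monocyte marker CD14 had 26 and 47. Others on the same lists went the other way or had few reads, such as PDGFRA with 5 and 2 and CD68 with 6 and 4. These genes were picked with their values in view, and each comparison sets 1 library against 1 library.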
